A study of Mus musculus with 8 samples.

Results

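The stretch of mouse chromosome 17 from 23 to 47 Mb (build mm9) held 297 of the 26620 regions counted by ATAC-seq in embryonic tailbuds, 1.12% of the set and 29.1% of the 1019 regions on that chromosome. ATAC-seq measures open chromatin: the Tn5 transposase inserts sequencing adapters where DNA is accessible, and the count over a region rises with its accessibility. A region was a member when the midpoint of its coordinates lay in the stretch. The borders were chosen from the measured difference between the genotypes along the chromosome, so that difference is described here without a test and supports nothing by itself.

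The libraries came from tailbuds, the growing posterior end of the embryo, taken at embryonic day 9.5. There were 4 libraries of wild-type embryos (WT) and 4 of homozygotes for the Danforth's short tail allele (Sd/Sd), which was maintained on the outbred CD-1 stock. Some libraries are pools of tailbuds from more than 1 mouse, and the sources used here do not say which. Labels call the libraries replicates without saying whether they came from separate litters, so any spread below is that between these 8 libraries.

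Chromosome 17 carries the mouse major histocompatibility complex, H2, near 34 to 37 Mb of this build. The complex encodes class I and class II molecules, which present peptides to T cells, together with complement and cytokine genes, and it is one of the most polymorphic parts of the mouse genome. In the RefSeq gene order of assembly GRCm38.p6 the landmarks run from Pkd1 (polycystin), Sox8 and Axin1 (a scaffold of the Wnt pathway) through Cdkn1a (a cell cycle inhibitor) and Notch3 to H2-K1. They continue with the class II genes H2-Ab1 and H2-Aa, then Notch4, Tnf and Pou5f1, and end with Runx2 (a bone transcription factor) and Vegfa (a vascular growth factor). That assembly differs from the build of the files, so no region was assigned to a gene and no sequence was read. The Danforth mutation itself lies on another chromosome.

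The members were slightly narrower and lower than the other regions of the chromosome. Their median width was 758 bp (200 to 2440) against 913 bp in the 722 other regions of chromosome 17. Their median level over the 8 libraries was 22.7 CPM (a count scaled to the library total), with 27.3 in the rest of the chromosome and 25.8 on the other autosomes. Region totals ran from 2873918 to 4180434 per library, of which 25612 to 32730 counts fell in the stretch, and the median count per member was 67 to 91. The within-genotype SD of log2 CPM had a median of 0.22 in WT and 0.23 in Sd/Sd over the members, and of 0.19 in both genotypes over the rest of the chromosome. At this depth the 95% interval of a member's log2 fold change reached a median of 0.35 to each side. It stayed within 2-fold for 286 of the 297 members and within 1.5-fold for 185.

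Accessibility in the stretch was mostly lower in Sd/Sd. The fitted log2 fold change of Sd/Sd over WT was below 0 at 216 of the 297 members (72.7%), with a median of -0.11. The middle 50% of members lay between -0.26 and 0.01, and the extremes were -0.89 and 0.56. In the rest of chromosome 17, 45.2% of regions were below 0 with a median of 0.02, and on the other autosomes 49.7% were, with a median of 0.0011. Most members thus lay slightly below 0, and a few lay far from it.

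Few members stood out singly. An unadjusted p under 0.05 in edgeR was reached by 35 members lower in Sd/Sd (11.8%), where 3.09% of all regions were so called. Another 3 members were higher (1.01%), where 2.98% of all regions were. The rest of the chromosome had 16 lower and 24 higher regions. After adjustment over all regions, 1 member had a p under 0.05, and 0.0188% of all regions did. The 4 Sd/Sd libraries lay below all 4 WT libraries at 14 members (4.71%), and above all of them at 1 (0.337%), with 1.6% of all regions in the former class and 1.6% in the latter. Because the stretch was chosen on this contrast, nothing is read from these shares. Leaving out Sd/Sd replicate 4 took the lower members from 35 to 22, and leaving out Sd/Sd replicate 1 took them to 46. Leaving out WT replicate 2 or Sd/Sd replicate 2 took the higher members from 3 to 1. Over all 8 fits with 1 library left out, the higher members numbered 1 to 4.

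**Figure D1:**
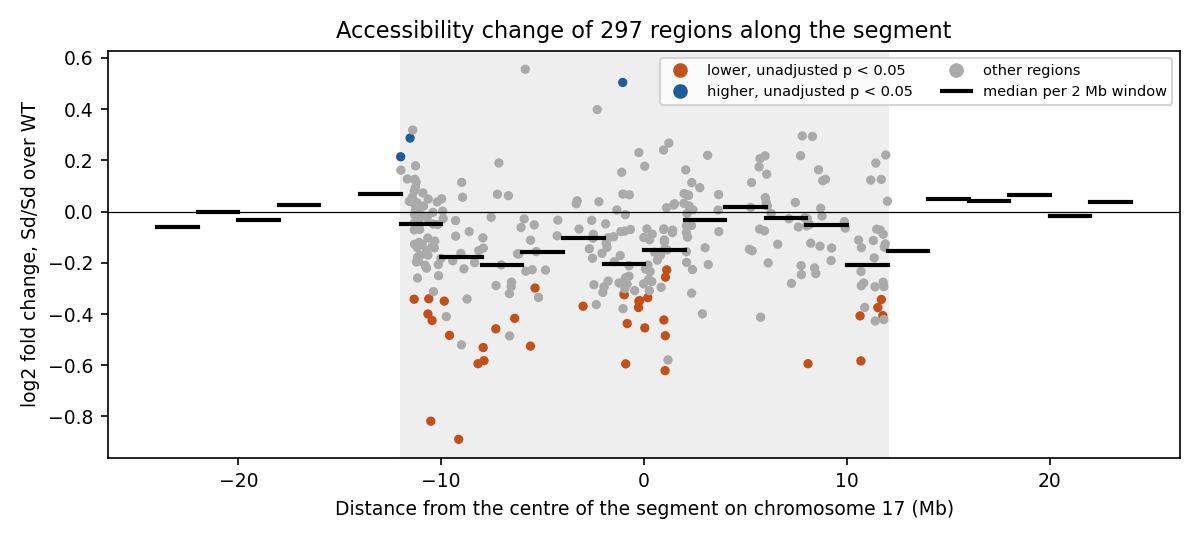
Log2 fold change of Sd/Sd over WT at each of the 297 members (points), by distance in Mb from the middle of the stretch (shaded), with the median of each 2 Mb window as a black bar, also outside the stretch. Orange points are the 35 members lower and blue points the 3 higher at an unadjusted p under 0.05; most window bars inside the shaded area lie below 0, and the window bars of the part from +2 to +10 Mb lie near it.

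The level of the whole stretch differed from library to library. For each library the deviation of log2 CPM from the mean of the 8 libraries was taken at every region and the median used. Over the members this deviation was 0.16, 0.04, 0.09 and 0.01 in WT replicates 1 to 4. It was 0.03, -0.07, -0.04 and -0.16 in Sd/Sd replicates 1 to 4. WT replicate 1 was the highest library and Sd/Sd replicate 4 the lowest. Over the rest of chromosome 17 the same measure stayed between -0.02 and 0.04 in all 8 libraries.

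Set against the rest of the chromosome, the stretch was 0.16, 0.06, 0.11 and 0.0022 log2 units higher in the 4 WT libraries. In the Sd/Sd libraries it was at 0.05, -0.08, -0.08 and -0.20. The means were 0.08 ± 0.07 (SD, n = 4) in WT and -0.08 ± 0.10 (SD, n = 4) in Sd/Sd, a difference of -0.16. The genotypes overlapped, since Sd/Sd replicate 1 lay above WT replicate 4. The difference ran from -0.12 to -0.19 when any 1 library was left out. It was -0.08 without both WT replicate 1 and Sd/Sd replicate 4.

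The share of chromosome 17 counts that fell in the stretch gave a similar order. It was 23.5%, 22.2%, 22.8% and 21.6% in the WT libraries and 22.3%, 20.9%, 21.3% and 19.9% in the Sd/Sd libraries. It averaged 22.5% ± 0.800 in WT (SD, n = 4) and 21.1% ± 0.998 in Sd/Sd (SD, n = 4), and the genotypes differed by -1.40 percentage points. WT replicate 1 again had the highest share and Sd/Sd replicate 4 the lowest, and Sd/Sd replicate 1 lay above WT replicates 2 and 4. Without these extreme libraries, WT replicate 1 and Sd/Sd replicate 4, the difference was -0.685 percentage points.

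**Figure D2:**
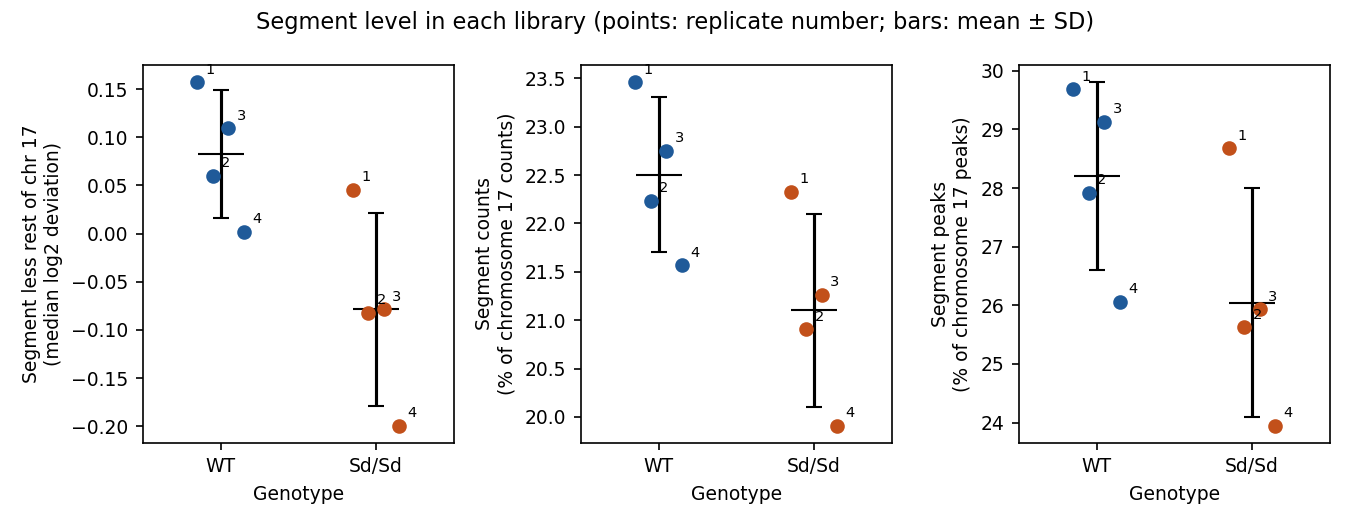
The level of the stretch in each of the 8 libraries in 3 measures: median log2 deviation less that of the rest of chromosome 17 (left), percent of chromosome 17 counts (middle) and percent of chromosome 17 peaks (right). Points are libraries with their replicate number, bars the mean ± SD of 4 libraries, and the vertical axes do not start at 0; the WT means lie above the Sd/Sd means in all 3 measures and single libraries of the genotypes overlap.

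The contrast was largest between those extreme libraries. WT replicate 1 was the highest of the 8 libraries at 87 members (29.3%) and Sd/Sd replicate 4 the lowest at 97 (32.7%). In the rest of the chromosome each of these counts was 97 of 722 regions (13.4%). WT replicate 1 lay above the mean of the libraries at 225 members and Sd/Sd replicate 4 at 77. With both libraries left out, the median log2 fold change of the members was -0.04, and 175 of the 297 (58.9%) were below 0. That fit had 18 lower and 7 higher members at an unadjusted p under 0.05, and 14 of the 18 were among the 35 of the full fit. These were 6.06% and 2.36% of the members, where 2.59% of all regions were lower and 2.40% higher in that fit. Both libraries also differed from each other on other chromosomes. Over the 18 other autosomes their median deviations had a Pearson r of -0.776, a description of values centred on the same mean. Both had their widest deviation on chromosome 11, at 0.07 for the WT library and -0.09 for the Sd/Sd library. These were the highest WT and the lowest Sd/Sd library in level and in share. Leaving them out was therefore bound to shrink the difference between the genotypes. The part of these libraries in that difference was not tested beyond this.

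**Figure D3:**
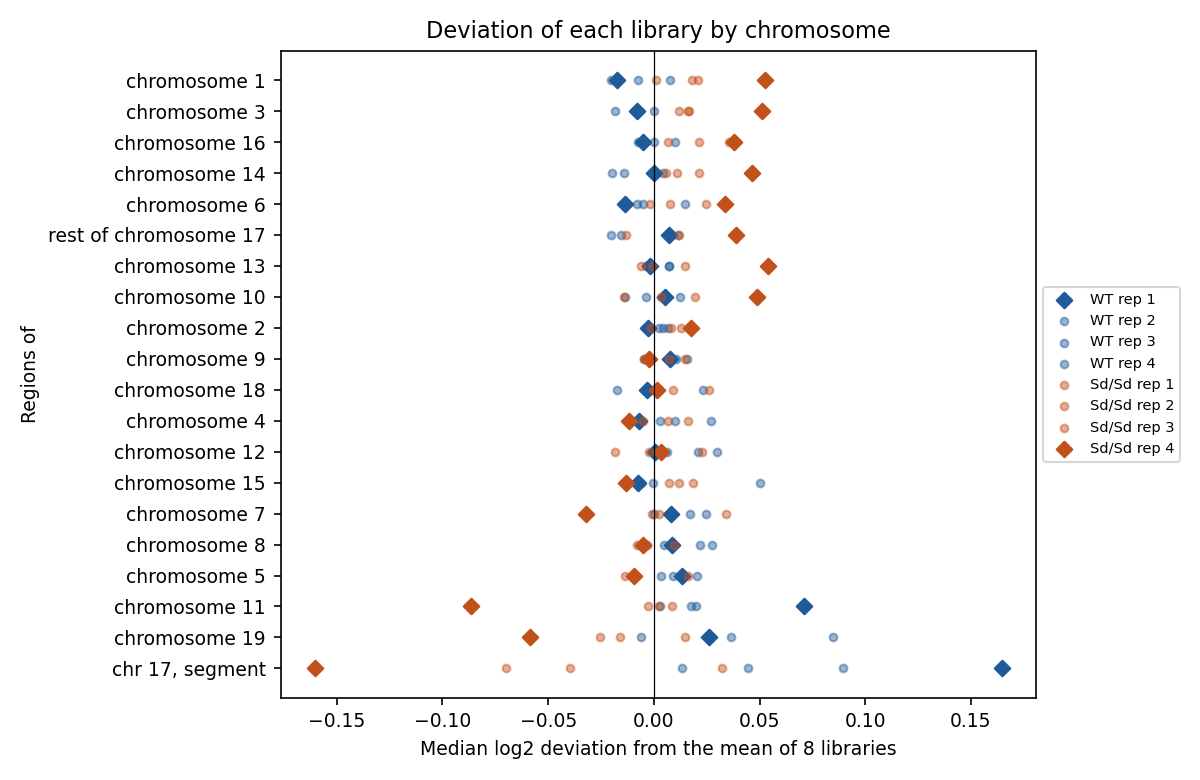
Median log2 deviation of each library from the mean of the 8 libraries (horizontal axis) for the regions of each other autosome, the rest of chromosome 17 and the stretch from 23 to 47 Mb (bottom row), ordered by median log2 fold change. Diamonds are WT replicate 1 (blue) and Sd/Sd replicate 4 (orange) and circles the other 6 libraries; the diamonds lie at 0.16 and -0.16 in the stretch and at 0.07 and -0.09 on chromosome 11.

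Depth also differed between the libraries. Sd/Sd replicate 4, in which the stretch was lowest, had the largest total count (4180434), and WT replicate 3 the smallest (2873918). WT replicate 1, in which the stretch was highest, had 3451166 counts. The Pearson r with total count over the 8 libraries was -0.56 for the level of the stretch against the rest of the chromosome. It was -0.51 for the count share (unadjusted permutation p of 0.168 and 0.211). When WT replicate 3 and Sd/Sd replicate 4 were dropped, these r values became 0.35 and 0.42. Both measures hold the genotype difference that chose the stretch, so nothing is read from them on the part of depth in the shift.

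Along the stretch the shift was uneven. Of the 12 windows of 2 Mb, 11 had a median log2 fold change below 0, and 7 had one under -0.1. In the rest of the chromosome 14 of 34 windows were below 0, and 2 were under -0.1. The window from 23 to 25 Mb, the most densely covered of the 12 with 61 regions, had a median of -0.05. Within it the median was -0.0041 over the 36 regions from 23 to 24 Mb and -0.14 over the 25 from 24 to 25 Mb. From 25 to 27 Mb the median was -0.18, from 27 to 29 Mb -0.21, from 29 to 31 Mb -0.16 and from 31 to 33 Mb -0.10. The windows of the histocompatibility complex followed with -0.20 from 33 to 35 Mb and -0.15 from 35 to 37 Mb.

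Past the complex the difference was close to 0. The median was -0.03 from 37 to 39 Mb, 0.02 from 39 to 41 Mb, -0.02 from 41 to 43 Mb and -0.05 from 43 to 45 Mb. It returned to -0.21 from 45 to 47 Mb. The 140 regions from 25 to 37 Mb thus had a median of -0.16 with 24 lower and 1 higher, and the 68 regions from 37 to 45 Mb one of -0.03 with 1 lower and 0 higher, all at an unadjusted p under 0.05. The lower regions were 17.1% of the former block and 1.47% of the latter, beside 3.09% of all regions, and the higher one was 0.714% of the former, beside 2.98%. These blocks were set from the profile itself.

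The window from 45 to 47 Mb was the only one of the 12 in which the genotypes did not overlap. Its 28 regions had median deviations of 0.14, 0.11, 0.18 and 0.03 in WT replicates 1 to 4. In Sd/Sd replicates 1 to 4 they were -0.00022, -0.08, -0.05 and -0.22. In the window from 27 to 29 Mb, by contrast, the 19 regions ran from -0.17 (WT replicate 4) to 0.41 (WT replicate 1) within WT. Within Sd/Sd they ran from -0.35 (replicate 4) to 0.16 (replicate 1). WT replicate 4 thus lay below 3 Sd/Sd libraries there. Over members with a mean count of at least 50, the window medians were -0.16 from 27 to 29 Mb, -0.25 from 33 to 35 Mb and -0.28 from 45 to 47 Mb, so the order of the low windows depended on that filter.

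WT replicate 1 was the highest library in 7 of the 12 windows, and Sd/Sd replicate 4 the lowest in 8. In the windows from 39 to 41 Mb and from 41 to 43 Mb Sd/Sd replicate 4 was instead the highest, at 0.22 and 0.11. In the rest of the chromosome Sd/Sd replicate 4 was the highest library in 14 of 34 windows and the lowest in 5. Over the windows of the stretch the SD of its median deviation was 0.19, with 0.06 to 0.12 in the other 7 libraries. Sd/Sd replicate 4 had the widest SD elsewhere too, at 0.12 in the rest of the chromosome (0.05 to 0.10 in the others) and 0.13 on the other autosomes (0.06 to 0.08).

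**Figure D4:**
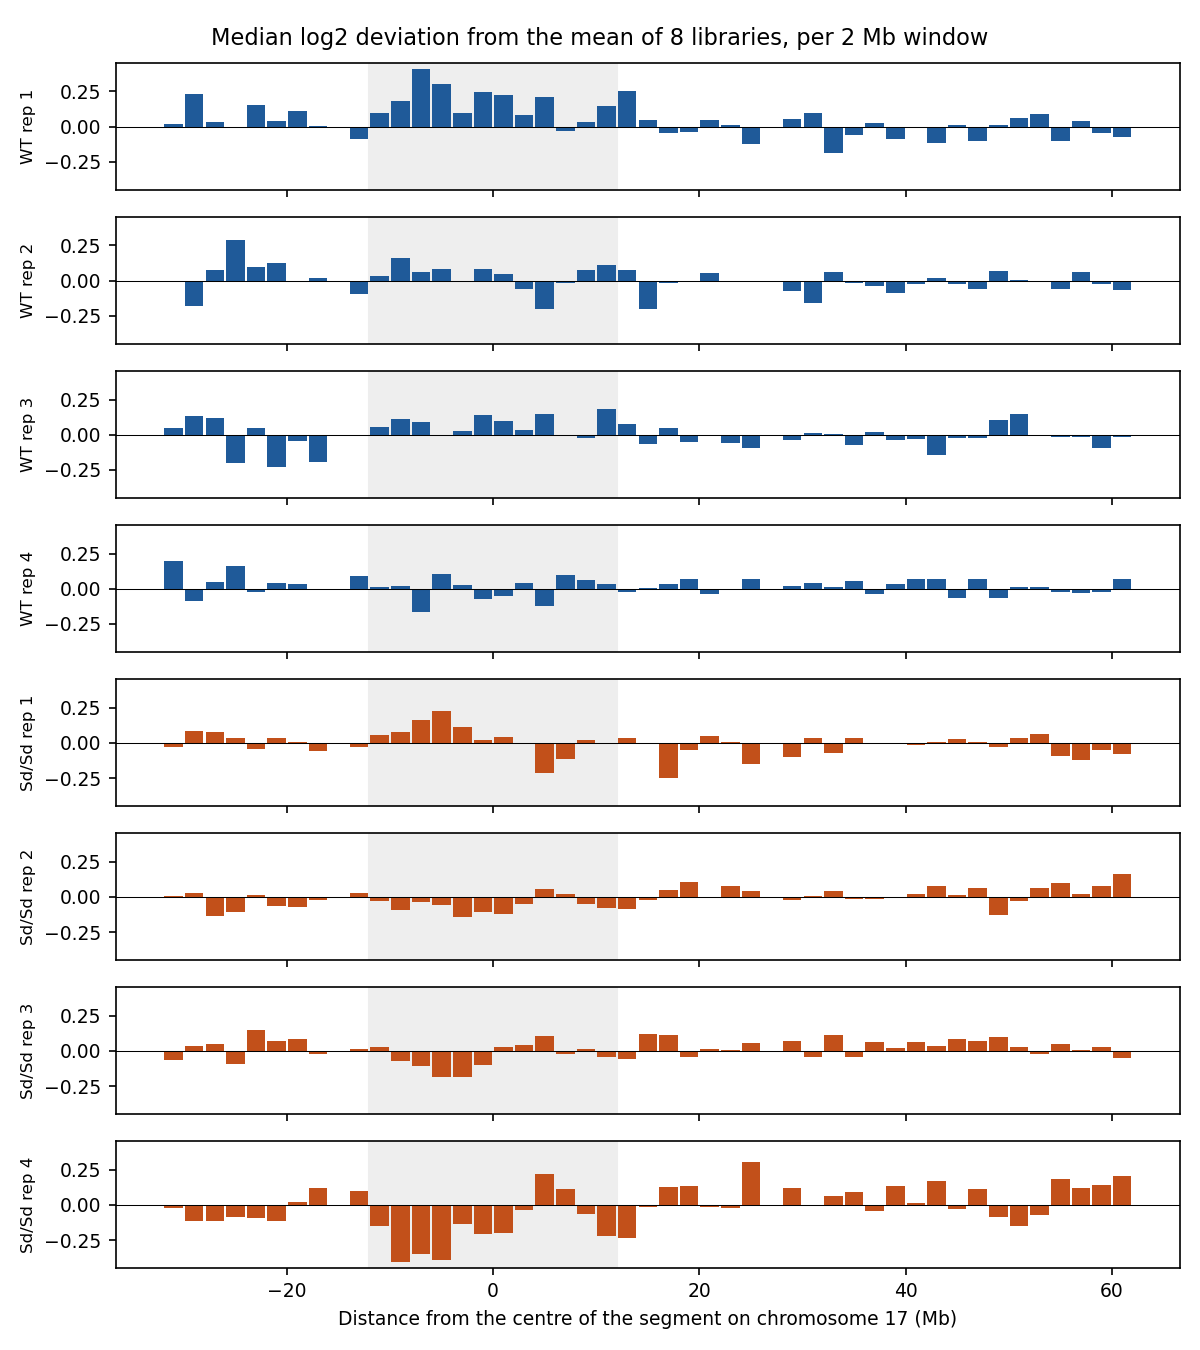
Median log2 deviation from the mean of the 8 libraries in each 2 Mb window of chromosome 17 (bars), 1 panel per library, by distance in Mb from the middle of the stretch (shaded). WT replicate 1 stands above 0 in 11 of the 12 shaded windows and Sd/Sd replicate 4 in 2.

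The borders of the stretch were not sharp at both ends. Before the first border the window from 21 to 23 Mb had a median of 0.07 over 42 regions. After the last border the window from 47 to 49 Mb had -0.16 over 15 regions, which is as low as windows inside. In that window 3 of the 15 regions were lower at an unadjusted p under 0.05, beside 3.09% of all regions. All Sd/Sd libraries lay below all WT libraries at 0 of the 15, beside 1.6% of all regions. The borders were chosen on this contrast, so nothing is read from these counts. At the first border, the region just outside (chr17:22954384-22955402) had a log2 fold change of -0.01 and the one just inside (chr17:23003477-23004636) 0.21. At the last border, the region just inside (chr17:46994177-46995539) had 0.04 and the one just outside (chr17:47026421-47027893) -0.23.

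The longest run of neighbouring members below 0 held 15 regions from 35035214 to 35841701, a span of 0.806 Mb inside the histocompatibility complex, with 2 regions of unadjusted p under 0.05. The next held 13 regions from 26122312 to 27702946. Runs of 12 regions each followed, from 44215597 to 45874183 and from 33961304 to 34259797. The sign that defines these runs is the value that chose the stretch, so they give positions only.

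The 56 regions between 34 and 37 Mb, where the complex lies, had a median log2 fold change of -0.20. Of these, 46 were below 0, 13 were lower and 0 higher at an unadjusted p under 0.05, and 3 had no overlap between the genotypes. The shares were 23.2% lower and 5.36% not overlapping, beside 3.09% and 1.6% of all regions, and nothing is read from them. Their values ran from -0.62 to 0.27. The median deviation of the block was 0.25, 0.10, 0.09 and -0.05 in the WT libraries and 0.05, -0.12, -0.05 and -0.26 in the Sd/Sd libraries, so WT replicate 4 lay below Sd/Sd replicate 1 here too. Authors' peaks covered 21 of the 56 in all 8 libraries.

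The region of largest change in this block was chr17:36033750-36034725 (976 bp). It had 44.3, 31.8, 28.9 and 29.6 CPM in WT and 23.1, 19.1, 23.8 and 21.3 CPM in Sd/Sd. All Sd/Sd libraries were below all WT libraries, and the log2 fold change was -0.62 (SE 0.16). Its neighbours differed less. At chr17:36046674-36047256 the WT libraries had 24.3, 22.2, 24.7 and 17.6 CPM and the Sd/Sd libraries 18.6, 10.7, 21.1 and 12.7 CPM, a log2 fold change of -0.48, with overlap. At chr17:36053060-36054105 the means were 61.0 ± 5.17 and 50.8 ± 7.72 CPM (SD, n = 4 each), a log2 fold change of -0.26.

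Nearer the start of the block, chr17:34168432-34169381 had 35.9, 37.4, 31.7 and 28.7 CPM in WT and 25.3, 26.2, 25.03 and 22.01 CPM in Sd/Sd. These values did not overlap, and the log2 fold change was -0.44 (SE 0.16). The stronger region at chr17:34740369-34741420 had 59.1, 64.6, 56.7 and 50.7 CPM in WT and 52.8, 46.6, 40.4 and 40.7 CPM in Sd/Sd. Here only Sd/Sd replicate 1 reached above the lowest WT library, and the log2 fold change was -0.35. At chr17:34092433-34092931 the WT libraries split into 22.6 and 24.01 CPM in replicates 1 and 3 and 15.9 and 15.2 CPM in replicates 2 and 4. Sd/Sd had 12.8, 15.9, 9.35 and 13.2 CPM there, a log2 fold change of -0.59. The other 7 lower regions of the block had log2 fold changes from -0.45 to -0.23, among them chr17:35035214-35035979 at the first value and chr17:36115898-36117615 at the last.

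Outside the complex, the member that passed the adjusted threshold was chr17:25864251-25864762 (512 bp). Its WT libraries had 32.2, 17.9, 32.7 and 22.5 CPM and its Sd/Sd libraries 14.7, 13.6, 15.4 and 12.9 CPM. WT replicates 1 and 3 were well above WT replicates 2 and 4, and the Sd/Sd libraries were close together below them all. The log2 fold change was -0.89 (SE 0.19), and every library had a peak there. With 1 library left out its edgeR adjusted p lay between 0.0184 and 0.364 and was under 0.05 in 3 of 8 fits. It rose to 0.211 or 0.364 when WT replicate 1 or 3 was dropped, and to 0.0715, 0.194 or 0.127 when Sd/Sd replicate 1, 2 or 4 was (edgeR, adjusted). With all 8 libraries it was 0.139 with DESeq2 and 0.0513 with upper quartile scaling in edgeR, both adjusted, so the call was lost under either.

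Peak calls changed beside the counts at a few members. At chr17:24488119-24489075 (957 bp) WT had 25.5, 30.8, 22.3 and 24.9 CPM and Sd/Sd 17.5, 14.6, 12.4 and 13.9 CPM, with no overlap and a log2 fold change of -0.82 (SE 0.19). Peaks were called there in 4 WT libraries and 1 Sd/Sd library. The same 4 against 1 was seen at chr17:45685798-45687048 (1251 bp), with 36.5, 34.4, 38.3 and 28.7 CPM in WT and 27.2, 25.6, 21.7 and 17.5 CPM in Sd/Sd, a log2 fold change of -0.58 (SE 0.16). Sd/Sd replicate 4 was the lowest at the latter and Sd/Sd replicate 3 at the former. Over all members, 0 had a peak in 4 WT and 0 Sd/Sd libraries, and 1 in 3 WT and 0 Sd/Sd libraries. In the reverse direction, 2 members had a peak in 0 WT and 4 Sd/Sd libraries, and 2 in 0 WT and 3 Sd/Sd libraries.

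A graded pattern, in which libraries of the same genotype differed about as much as the genotypes, was seen at chr17:27691955-27693843 (1889 bp). WT had 59.1, 47.7, 56.0 and 38.9 CPM, and Sd/Sd had 48.3, 33.7, 38.3 and 26.3 CPM. Sd/Sd replicate 1 lay above WT replicates 2 and 4, and the log2 fold change was -0.46. At chr17:25410225-25411312, 3 Sd/Sd libraries had 17.5, 20.8 and 17.5 CPM while Sd/Sd replicate 1, with 29.2 CPM, was inside the WT range of 27.5 to 31.3 CPM (log2 fold change -0.48). In both, Sd/Sd replicate 1 was the library of its genotype nearest to WT.

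Further lower regions were chr17:24551240-24551986 (log2 fold change -0.43), chr17:43080308-43080731 (-0.59) and chr17:46520203-46521284 (-0.37). The first had 30.5 to 37.2 CPM in WT and 22.98 to 28.9 CPM in Sd/Sd, without overlap. The region at 43080308, the only one between 37 and 45 Mb that was lower at an unadjusted p under 0.05, had 14.6 to 18.2 CPM in WT and 7.77 to 13.3 CPM in Sd/Sd, also without overlap. The region at 46520203 had 34.8 to 49.8 CPM in WT and 27.7 to 35.3 CPM in Sd/Sd, with slight overlap.

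**Figure D5:**
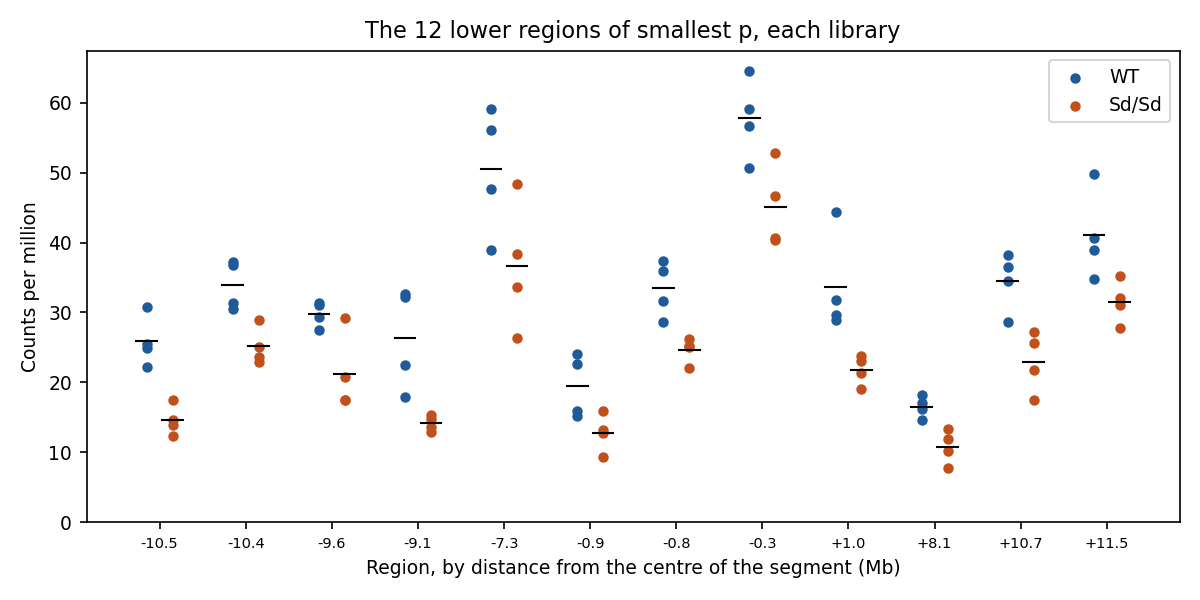
CPM in each WT (blue) and Sd/Sd (orange) library at the 12 members of smallest p that were lower in Sd/Sd, with the mean of 4 libraries as a black line, labelled by distance in Mb from the middle of the stretch. Levels run from 7.77 to 64.6 CPM, and in several regions single libraries of the genotypes overlap although all 12 Sd/Sd means are lower.

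The 35 lower members had log2 fold changes from -0.89 to -0.23 with a median of -0.42, and 12 of them had no overlap between genotypes. Sd/Sd replicate 4 was the lowest library at 14 of them, Sd/Sd replicate 2 at 9, Sd/Sd replicate 3 at 7, Sd/Sd replicate 1 at 3 and a WT library at 2. WT replicate 1 was the highest at 13. The lowest library thus varied from region to region. Peaks were called in fewer Sd/Sd than WT libraries at 17 of the 35, in as many at 17 and in more at 1, and 16 had a peak in all 8 libraries. Over all members, 22.6% had peaks in fewer and 22.2% in more Sd/Sd libraries. All Sd/Sd libraries lay below all WT libraries at 1.6% of all regions. The 35 were picked for lower counts from the same sequencing, so nothing is read from their overlap or peak counts.

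The members higher in Sd/Sd were few and weak. The largest of the 3 was chr17:33947250-33947707, with 9.85, 13.2, 6.26 and 10.8 CPM in WT and 15.8, 19.4, 11.2 and 11.004 CPM in Sd/Sd (log2 fold change 0.50, SE 0.25). It had a peak in 0 WT and 3 Sd/Sd libraries, and its levels were among the low ones. At chr17:23465671-23467924 the means were 47.6 ± 9.60 CPM in WT and 58.0 ± 6.96 CPM in Sd/Sd (SD, n = 4 each), a log2 fold change of 0.29. The third was the first member inside the border at 23 Mb, with means of 101 ± 3.55 and 117 ± 10.3 CPM. The single member at which all Sd/Sd libraries were above all WT libraries was chr17:42795628-42796255, with 15.7 to 19.03 CPM in WT and 19.6 to 21.4 CPM in Sd/Sd (log2 fold change 0.30).

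The 3 most accessible members did not share the shift. All lay within 1 Mb of the first border, where the 36 regions from 23 to 24 Mb had a median log2 fold change of -0.0041. Level and position thus cannot be told apart for these 3 members. The highest, chr17:23683101-23684486, had 137, 133, 134 and 139 CPM in WT and 137, 122, 135 and 142 CPM in Sd/Sd, a log2 fold change of -0.01. At chr17:23329490-23330793 the means were 105 ± 7.37 and 114 ± 7.40 CPM (SD, n = 4 each). The third was the border region at 23003477 described above.

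By level, the 25 members with a mean count of 200 or more had a median of 0.02 on the log2 fold change scale, and 40.0% were below 0. The 66 members with a mean count from 100 to 200 had -0.12, the 138 from 50 to 100 had -0.14 and the 68 under 50 had -0.13. On the other autosomes the same classes had 0.02, -0.01, -0.0064 and 0.0055. The median was thus below 0 in the 3 lower classes and above 0 in the highest. An analysis chosen after seeing the data subtracted the shift of the same class of mean count on other autosomes. The difference between the genotypes was then -0.15, beside -0.16 uncorrected. This correction could change little, since the shifts of these classes on other autosomes were small. It does not bear on the differences between classes inside the stretch.

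The shift was seen at each density of regions. In parts of the stretch with under 10, 10 to 19, and 20 or more regions per Mb, the median log2 fold change was -0.14, -0.11 and -0.11. On the other autosomes it was 0.0069, 0.0045 and -0.01 in the same classes. By width, members of 500 to 1000 bp had -0.15, narrower ones -0.10, those of 1000 to 1500 bp -0.05 and the 14 of 1500 bp or more -0.06. On the other autosomes the medians of these width classes lay between -0.0032 and 0.0072.

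Some members varied mainly within a genotype. Among members with a mean count of at least 50, the largest spread between WT libraries was at chr17:28758747-28759561, with 27.8 CPM in WT replicate 1 and 9.60 CPM in WT replicate 2. Its mean was 16.5 ± 7.98 CPM in WT and 14.8 ± 2.84 CPM in Sd/Sd (SD, n = 4 each). The largest spread between Sd/Sd libraries was at chr17:30748933-30750375, with 40.8, 30.7, 24.1 and 16.3 CPM. The genotype means there were 28.5 ± 4.68 and 27.99 ± 10.4 CPM (SD, n = 4 each). At chr17:24856712-24857199 Sd/Sd replicate 1 had 26.7 and Sd/Sd replicate 4 10.3 CPM, on either side of all WT libraries.

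Such within-genotype deviations do not hold the difference between the genotype means. They still hold the excursions of single libraries, such as WT replicate 1 and Sd/Sd replicate 4, that add to that difference. The choice of the stretch may therefore bear on them, which was not tested. For pairs of regions within 100 kb, they were correlated over the 8 libraries with a median Pearson r of 0.137 in the stretch (656 pairs), 0.101 in the rest of the chromosome (1246 pairs) and 0.106 on the other autosomes (42083 pairs). These pairs share libraries and regions, and the values are descriptions. Pairs farther apart were also compared, only with all 8 libraries kept. At 0.5 to 2 Mb the median r was 0.151, against 0.03 and 0.05 in the rest of the chromosome and on the other autosomes. At 10 to 24 Mb it was 0.06, against 0.0024 and 0.0077. Leaving out Sd/Sd replicate 2 gave a median within 100 kb of 0.225, and leaving out Sd/Sd replicate 4 gave 0.0973. Without WT replicate 1 and Sd/Sd replicate 4 it was 0.0746 in the stretch, 0.0194 in the rest and 0.0732 on the other autosomes.

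The authors' own peak lists, 1 per library, gave a further readout from the same sequencing. By number, the stretch held 266, 215, 208 and 246 peaks in the WT libraries and 271, 205, 236 and 267 in the Sd/Sd libraries. The mean number was 233.75 in WT and 244.75 in Sd/Sd, while the peaks on the whole of chromosome 17 ran from 714 to 944 in WT and from 800 to 1115 in Sd/Sd. As a share of the peaks on chromosome 17 this was 29.7%, 27.9%, 29.1% and 26.1% in WT and 28.7%, 25.6%, 25.9% and 23.9% in Sd/Sd. The means were 28.2% ± 1.61 and 26.0% ± 1.96 (SD, n = 4 each), with overlap. The difference in share was -2.15 percentage points, and -0.959 without WT replicate 1 and Sd/Sd replicate 4. In the lists as deposited the mean number of peaks in the stretch was thus not lower in Sd/Sd. The lower share there went with more peaks elsewhere, and not only on this chromosome. The whole lists held 18682 to 24664 peaks in WT and 21306 to 30387 in Sd/Sd. Of all peaks, the stretch held a mean of 1.09% in WT and 0.968% in Sd/Sd. Among peaks of q at most 0.01 the mean number was 186.75 in WT and 182.25 in Sd/Sd, so its direction depended on the threshold. The share at that threshold was again lower in Sd/Sd, at 27.7% against 30.3%.

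Members with peaks in more WT libraries were about as many as those with peaks in more Sd/Sd libraries. In the rest of the chromosome the latter were more frequent, and the Sd/Sd peak lists were longer on average. More WT than Sd/Sd libraries had a peak at 67 members (22.6%), fewer at 66 (22.2%), and as many at 164. In the rest of the chromosome these were 82 (11.4%), 215 (29.8%) and 425 regions. A peak in all 8 libraries was found at 120 members (40.4%) and at 42.5% of the rest. Of 437 merged peak intervals in the stretch, 0 were in all WT and no Sd/Sd library, and 2 (0.458%) were in all Sd/Sd and no WT library. In the rest of the chromosome these were 0 and 1 of 1548, and on the other autosomes 8 and 78 of 52185.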

How the data were processed

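ATAC-seq libraries of 4 WT and 4 Sd/Sd tailbud samples were grouped by the labels. Per the submitters' processing notes, coordinates are in mm9, and the listed tools are MACS2 2.1.1.20160309, bedtools 2.26.0, BWA 0.7.15-r1140, SAMtools, Picard, CASAVA and bcl2fastq 2.17.1.14. The sources used here do not give their roles, order or settings, or say whether reads were shifted for Tn5. Unnormalized counts were deposited over 26620 shared autosomal regions; what 1 count stands for (read, fragment or cut) is not stated. The authors also deposited broad peaks called in each library, each with its score, fold enrichment, −log10 q-value and −log10 p-value.

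CPM is the count over the library total. Log2 fold changes and p-values came from edgeR 4.0.16 (quasi-likelihood F test, robust, TMM, two-sided) in R 4.3.3 on all regions and 8 libraries, with genotype as the only term and Benjamini-Hochberg adjustment over all regions; the low-count filter removed 0. Log2 deviations used TMM and a prior count of 2. Intervals include the spread between libraries as well as counting error. The procedure was tested on simulated counts. Summaries and figures were made in Python 3.11.15.

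The members and lists were chosen with earlier results of these data known. Named regions were members with an adjusted p under 0.05, the 12 lower and 8 higher members of smallest p, members from 34 to 37 Mb with an unadjusted p under 0.05, the 3 of highest mean CPM, the 3 of largest spread per genotype among those with a mean count of at least 50, and the regions at the borders; not all of these are described. Alternatives were DESeq2 1.42.0, other scalings, filters, windows and borders, stricter peaks, leaving out each library, and a replicate block. Leaving out WT replicate 1 with Sd/Sd replicate 4, and the correction by mean count, were chosen after seeing the data.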

Additional observations from a re-analysis of the deposited data

Results flagged for a closer look

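Groups of 4 libraries were examined at 53 regions, which are the named regions and the other members with an unadjusted p under 0.05, and in 8 groups of values for the whole stretch. In 3 of these 114 groups a library stood apart from the others by Dixon's criterion, where chance gives about 1 in 20 for unselected groups. Many of these regions were picked for a small p or a wide spread, and the groups share libraries. That rate therefore does not apply directly, and nothing is read from the number of groups. At chr17:23735533-23736692 WT replicate 4 had 94.6 CPM against 77.5 to 78.5 CPM in the other WT libraries, inside the Sd/Sd range of 89.0 to 98.3 CPM. At chr17:26813191-26813738 Sd/Sd replicate 1 had 15.3 CPM against 7.77 to 8.13 CPM in the other Sd/Sd libraries, inside the WT range of 11.6 to 17.6 CPM. At chr17:27069857-27070298 Sd/Sd replicate 3 had 13.0 CPM against 8.05 to 8.61 CPM in the other Sd/Sd libraries, inside the WT range of 12.9 to 14.96 CPM.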

How the results depend on the processing

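Of 74 recomputations of the 6 summary values, 69 were counted as unchanged. For the member count and the share of windows below 0 this meant within 1.5-fold of the full-fit value, a rule without a direction. For the other values it meant the same sign and a change smaller than their spread, so a shrunken difference could count as unchanged. None of these other values changed sign. Dropping the low-count filter left the member count the same by construction, since the filter removed no region. The count of members with an unadjusted p under 0.05, 38 in the full fit, was 28 with DESeq2, 34 with upper quartile scaling, and 26 to 48 with 1 library left out. It was 25 (18 lower, 7 higher) without WT replicate 1 and Sd/Sd replicate 4, for which fewer libraries entered the fit. Over all regions, the calls at an adjusted p under 0.05 numbered 5 in the full fit, 3 with DESeq2 or upper quartile scaling, 15 without robust variance and 2 to 19 with 1 library left out. The median neighbour correlation was 0.0973 to 0.225 with 1 library left out and 0.0746 without WT replicate 1 and Sd/Sd replicate 4; the cause was not tested. With 1 library left out the difference in count share ran from -1.81 to -1.004 percentage points, and in peak share from -3.03 to -1.45. The replicate numbers share no stated litter or day, so they were not taken to pair libraries. Same-numbered libraries had correlations of 0.0037, 0.0082, -0.0011 and 0.0918 of their deviations. Differently numbered libraries had -0.0473 to 0.0204. The value for WT replicate 4 with Sd/Sd replicate 4 was thus the highest of all pairs, and the cause was not tested. With the replicate block, 40 members (36 lower, 4 higher) had an unadjusted p under 0.05, and the adjusted calls over all regions numbered 23. The level and count share differences, -0.16 and -1.40, are the same with or without the block in this balanced design, so the block gives no information on them. Shifts within 0.35 log2 units are at the precision of a single member.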
